A study of Mus musculus with 7 samples.

Results

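Laminins are large cross-shaped glycoproteins of the basement membrane, the sheet of matrix on which epithelial cells rest. The 9 genes described here encode laminin chains and were taken by symbol from the deposited table, as 9 of its 56440 gene models. They comprise 5 α chains (Lama1, Lama2, Lama3, Lama4 and Lama5), 3 β chains (Lamb1, Lamb2 and Lamb3) and the γ chain Lamc1. Each was found in a single row, and each passed the filter on low values, so all 9 were tested. Lama5 was read from the row that also names the microRNA gene Mir7005.

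RNA was sequenced from mouse mammary basal cells that had been sorted by flow cytometry at day 2 of lactation. There were 3 libraries of the genotype a3a6KO, named for integrin subunits α3 and α6, and 4 libraries of the genotype Ctrl, which the submitters call biological replicates. The library titles mark every a3a6KO library as Blg positive and double knockout and every Ctrl library as Blg negative, so any effect of Blg and the loss of the integrins cannot be told apart. The sources used here do not give the strain, the age of the animals, the sorting markers or what drives the deletion.

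A laminin is a trimer of an α, a β and a γ chain joined by a coiled coil, and the C-terminal globular domains of the α chain carry the main binding sites for cells. The receptors are integrins, among them those built on the α3 and α6 subunits, together with dystroglycan, Bcam and syndecans. In the mammary gland the basal, myoepithelial cells lie directly on the basement membrane and make much of it, and a laminin that holds the α3 and β3 chains anchors epithelial cells through hemidesmosomes. Lama3 and Lamb3 encode those chains, while Lama1, Lama5, Lamb1, Lamb2 and Lamc1 chains form the broadly distributed laminins.

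The number of recovered reads ran from 9368418 to 18454773 in a3a6KO libraries and from 14480615 to 21548279 in Ctrl libraries. All values below are normalised read counts, gene counts scaled by the authors with 1 size factor per library, unless another scale is named. Markers of basal cells, led by Acta2, Oxtr and Tagln, summed to between 959589 and 1076339 in a3a6KO libraries and between 859835 and 1161529.5 in Ctrl libraries, above the sums of every other marker list. The transcripts of the genes named in the genotype were present in both groups. Itga3 ran from 494 to 818 in a3a6KO libraries and from 465 to 719 in Ctrl libraries, and Itga6 from 8343 to 9083 in a3a6KO libraries and from 7764 to 10603 in Ctrl libraries. The groups overlapped for both, so the level of these transcripts gave no check of the genotype labels. The sources used here do not say which exons were deleted.

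The members differ in the sequence just before their start as RefSeq gives it, which need not be the start of the deposited gene model. Promoter windows of 250 bases upstream of the start were found for 5 of the 9 genes (RefSeq, GRCm38.p6), and 3 are shown because they hold the gene with the smallest p (Lama5), the steadiest gene (Lamb3) and a gene whose Ctrl replicate 4 stood apart (Lamb1). Capitals mark the GC box GGGCGG or, on the other strand, CCGCCC.
Lama5 promoter, chr2:180225860-180226109, − strand: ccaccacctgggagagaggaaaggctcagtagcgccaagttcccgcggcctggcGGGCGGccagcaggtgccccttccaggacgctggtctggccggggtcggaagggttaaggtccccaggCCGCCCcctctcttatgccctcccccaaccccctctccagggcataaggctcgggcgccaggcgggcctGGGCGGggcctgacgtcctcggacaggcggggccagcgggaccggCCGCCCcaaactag
Lamb1 promoter, chr12:31265043-31265292, + strand: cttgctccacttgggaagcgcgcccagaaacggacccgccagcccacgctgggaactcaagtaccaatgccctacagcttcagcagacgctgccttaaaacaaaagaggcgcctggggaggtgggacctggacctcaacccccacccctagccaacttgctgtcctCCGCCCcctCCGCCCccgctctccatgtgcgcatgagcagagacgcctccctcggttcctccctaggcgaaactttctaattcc
Lamb3 promoter, chr1:193301744-193301993, + strand: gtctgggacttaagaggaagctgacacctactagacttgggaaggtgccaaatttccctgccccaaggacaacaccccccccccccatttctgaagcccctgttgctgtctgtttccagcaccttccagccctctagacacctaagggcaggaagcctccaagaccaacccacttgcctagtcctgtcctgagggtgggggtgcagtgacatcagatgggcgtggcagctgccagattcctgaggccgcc
The Lama5 window held 4 boxes and was 72.4% G and C, and the Lamb1 window held 2 boxes, both on the other strand, at 62.0% G and C. The Lamb3 window printed, a later window of Lamb3, and the windows of Lamb2 and Lama2 held 0. Both Lamb3 windows lie inside the deposited Lamb3 model (193207724 to 193343878), and the Lama2 window partly overlaps the deposited Lama2 model. Of 32851 windows of the same length 32.7% held at least 1 box, 16.7% at least 2 and 4.09% at least 4, and the median share of G and C was 52.4%. A match is a description of the letters in the window.

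None of the 9 laminin chain genes passed the test between a3a6KO and Ctrl cells. With limma on log2(value + 1) and Benjamini-Hochberg adjustment over 16889 genes, 0 of 9 were called, where 0.0% of all genes tested were, and adjusted p-values ran from 0.774 to 0.984. At an unadjusted p under 0.05 limma gave 1 of the 9, Lama5, beside 6.32% of all genes tested. The count tests gave the same number: edgeR called 0 and had 1 at an unadjusted p under 0.05 (background 6.07%), and DESeq2 called 0 and had 1 (background 6.69%), although DESeq2 called 0.456% of all genes. Fold changes below are log2, a3a6KO minus Ctrl. They were above 0 for 7 of the 9 genes (77.8%, against 49.5% of all genes tested), or for 6 under quantile normalisation and 5 with library weights. The median over the 9 genes was 0.19, where that of all genes tested was −0.004 and the 5th and 95th percentiles were −0.69 and 0.76. The median of the 9 was 0.04 with library weights, 0.34 without a3a6KO replicate 1, 0.06 without a3a6KO replicate 3 and 0.03 without Ctrl replicate 3. No gene had groups apart, where 4.0% of all genes lay wholly above and 3.51% wholly below Ctrl.

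**Figure D1:**
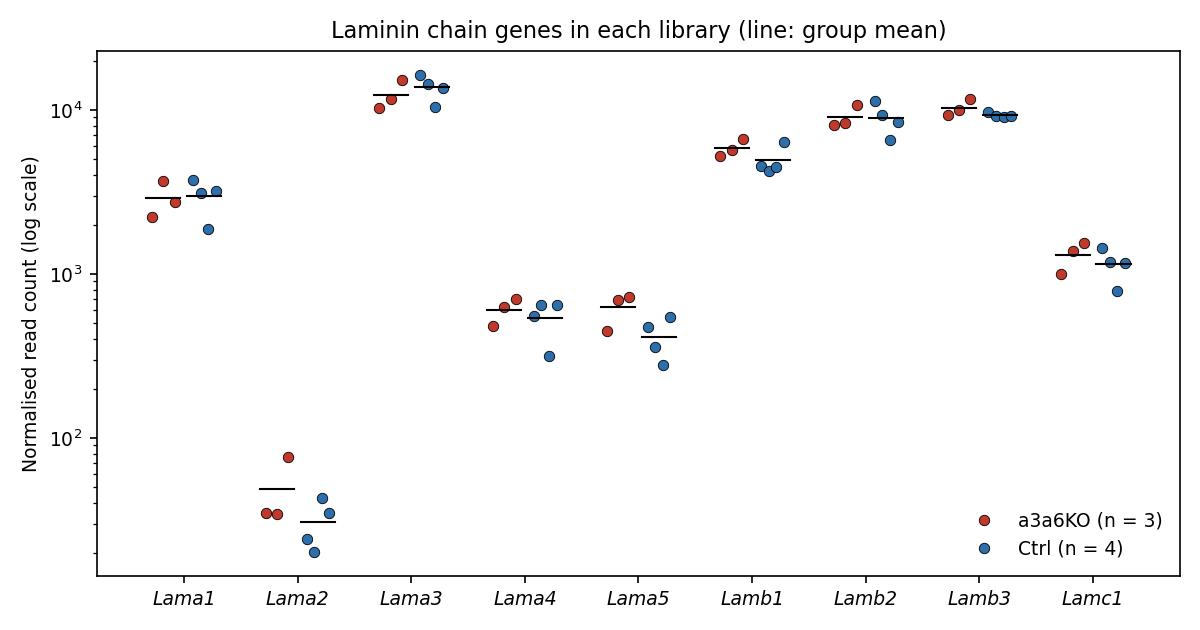
Normalised read count (log scale) of the 9 laminin chain genes in each of the 3 a3a6KO and 4 Ctrl libraries, with 1 point a library and a line at each group's mean. The points of the groups overlap for every gene, and the genes span from 20.2 (Lama2) to 16408 (Lama3).

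Lama3 encodes the α3 chain of the epithelial anchoring laminin and had the highest count of the 5 α chains in every library (chromosome 18, 12334024 to 12583013, + strand, mm10). It had 10237, 11614 and 15136 in a3a6KO libraries, against 16408, 14423, 10361 and 13648 in Ctrl libraries. The lowest library was a3a6KO replicate 1 and the highest Ctrl replicate 1, with Ctrl replicate 3 close to the lowest. The means were 12329 ± 2526 in a3a6KO cells (SD, n = 3) and 13710.1 ± 2517 in Ctrl cells (SD, n = 4), a difference smaller than either SD. Its fold change was −0.15 (SE 0.20, 95% interval −0.61 to 0.30, limma adjusted p = 0.904). It was −0.03 without a3a6KO replicate 1, −0.06 without Ctrl replicate 1, −0.31 without a3a6KO replicate 3 and −0.28 without Ctrl replicate 3. It was −0.24 under quantile normalisation and −0.29 with library weights. Exons of Lama3 overlap those of the antisense gene Gm29200, and since the use of strand is not given, reads of the pair cannot be told apart.

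Lama1 encodes the α1 chain, best known from embryonic and epithelial basement membranes (chromosome 17, 67697258 to 67822649, + strand). Its counts were 2232, 3662 and 2758 in a3a6KO libraries, against 3740.3, 3105, 1867 and 3222 in Ctrl libraries. The highest and the lowest library were both Ctrl, replicate 1 and replicate 3, so the Ctrl range enclosed the a3a6KO range. The fold change was −0.03 (SE 0.25, 95% interval −0.61 to 0.54, limma adjusted p = 0.984), and its sign turned in 4 of the 7 fits that left out a library, at 0.14 when a3a6KO replicate 1 was left out and 0.09, 0.0008 and 0.02 when Ctrl replicates 1, 2 and 4 were. Leaving out Ctrl replicate 3 gave −0.24 and leaving out a3a6KO replicate 2 gave −0.22, and library weights gave −0.14.

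Lama5 encodes the α5 chain, found under most adult epithelia and in vessel walls. It was the only member whose interval lay above 0 (chromosome 2, 180176374 to 180225859, − strand). Counts were 448, 696 and 728 in a3a6KO libraries, against 475, 358, 279 and 544 in Ctrl libraries. Replicates 2 and 3 of a3a6KO were above all Ctrl libraries, while a3a6KO replicate 1 lay below Ctrl replicates 1 and 4, so the groups overlapped. The means were 624 ± 153 in a3a6KO cells (SD, n = 3) and 414 ± 118 in Ctrl cells (SD, n = 4). On the log2 scale the difference was 0.60 (SE 0.26, 95% interval 0.01 to 1.197), with a limma p of 0.0463 before adjustment and 0.774 after it. It ranged from 0.43 (without Ctrl replicate 3) to 0.83 (without a3a6KO replicate 1) when libraries were left out.

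Lama4 encodes the α4 chain of vessel, fat and mesenchymal basement membranes (chromosome 10, 38965513 to 39110188, + strand). It had 481, 632 and 705 in a3a6KO libraries, against 555, 646, 317 and 647 in Ctrl libraries. Ctrl replicate 3 was the lowest library and the others lay close together across the groups. This gave a fold change of 0.20 (SE 0.26, 95% interval −0.40 to 0.80, limma adjusted p = 0.904). It was −0.04 without Ctrl replicate 3, 0.36 without a3a6KO replicate 1, 0.08 without a3a6KO replicate 3 and 0.30 without Ctrl replicate 2 or 4, and −0.0011 with library weights.

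Lama2 encodes the α2 chain of muscle and nerve basement membranes, and it was the least counted member (chromosome 10, 26981288 to 27617031, − strand). It had 34.8, 34.3 and 76.5 in a3a6KO libraries, against 24.1, 20.2, 43.2 and 34.8 in Ctrl libraries. A single library, a3a6KO replicate 3, was high, and the other a3a6KO libraries lay within the Ctrl range. The fold change was 0.61 (SE 0.40, 95% interval −0.29 to 1.51, limma adjusted p = 0.826), and it was 0.23 without a3a6KO replicate 3. Exons of Lama2 overlap those of the antisense gene Gm48084, whose reads cannot be told apart from its own.

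Of the β chains, Lamb3 encodes the β3 chain that joins α3 in the anchoring laminin, and it was the steadiest of the 9 genes (chromosome 1, 193207724 to 193343878, + strand). It had 9299, 9968 and 11639.6 in a3a6KO libraries, against 9726, 9158, 9105 and 9164 in Ctrl libraries. The highest library was 1.28 times the lowest, where the same ratio was 3.79 for Lama2. The means were 10302 ± 1206 in a3a6KO cells (SD, n = 3) and 9288 ± 293 in Ctrl cells (SD, n = 4). Lamb3 had a fold change of 0.14 (SE 0.13, 95% interval −0.15 to 0.44, limma adjusted p = 0.873), or 0.05 without a3a6KO replicate 3, 0.043 under quantile normalisation and 0.085 with library weights. The deposited model of Lamb3 also spans G0s2 and Hsd11b1 on the other strand, with no shared exon.

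Lamb1 encodes the β1 chain, the partner of most α chains (chromosome 12, 31265292 to 31329644, + strand). It had 5199.8, 5695 and 6624 in a3a6KO libraries, against 4566, 4262, 4515 and 6351 in Ctrl libraries. Every a3a6KO library was above Ctrl replicates 1, 2 and 3, and Ctrl replicate 4 lay among the a3a6KO libraries. The fold change was 0.26 (SE 0.17, 95% interval −0.13 to 0.64, limma adjusted p = 0.826). It ranged from 0.16 (without a3a6KO replicate 3) to 0.39 (without Ctrl replicate 4).

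Lamb2 encodes the β2 chain, known from the neuromuscular synapse, the kidney filter and vessel walls (chromosome 9, 108479862 to 108490530, + strand). It had 8143, 8348 and 10782 in a3a6KO libraries, against 11342, 9305, 6559.8 and 8482 in Ctrl libraries. The Ctrl libraries spread more widely than the a3a6KO libraries and enclosed them. The fold change was 0.04 (SE 0.20, 95% interval −0.41 to 0.50, limma adjusted p = 0.973). Its sign turned without a3a6KO replicate 3 (−0.09), without Ctrl replicate 3 (−0.10), under quantile normalisation (−0.03) and with library weights (−0.05), and it was 0.17 without Ctrl replicate 1.

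Lamc1 encodes the γ1 chain, shared by most laminins (chromosome 1, 153218922 to 153332786, − strand). It had 993, 1377 and 1537 in a3a6KO libraries, against 1437, 1184, 788 and 1168 in Ctrl libraries. Ctrl replicate 3 was the lowest library and a3a6KO replicate 3 the highest, with Ctrl replicate 1 above a3a6KO replicate 2. Lamc1 had a fold change of 0.19 (SE 0.23, 95% interval −0.32 to 0.71, limma adjusted p = 0.894). It was 0.03 without Ctrl replicate 3, 0.06 without a3a6KO replicate 3, 0.38 without a3a6KO replicate 1, 0.32 without Ctrl replicate 1 and 0.04 with library weights.

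Among other laminin genes, Lamc3, which encodes a less common γ chain, had 44.7, 55.4 and 56.9 in a3a6KO libraries, against 35.1, 23.4, 16.5 and 23.5 in Ctrl libraries. Its groups were apart at these low counts, with a fold change of 1.10 (SE 0.32, limma adjusted p = 0.582). Ntn4, a laminin-related netrin of basement membranes, had a fold change of −0.14 (SE 0.22, limma adjusted p = 0.920), with −0.25 when Ctrl replicate 3 was left out and 0.05 when Ctrl replicate 1 was.

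**Figure D2:**
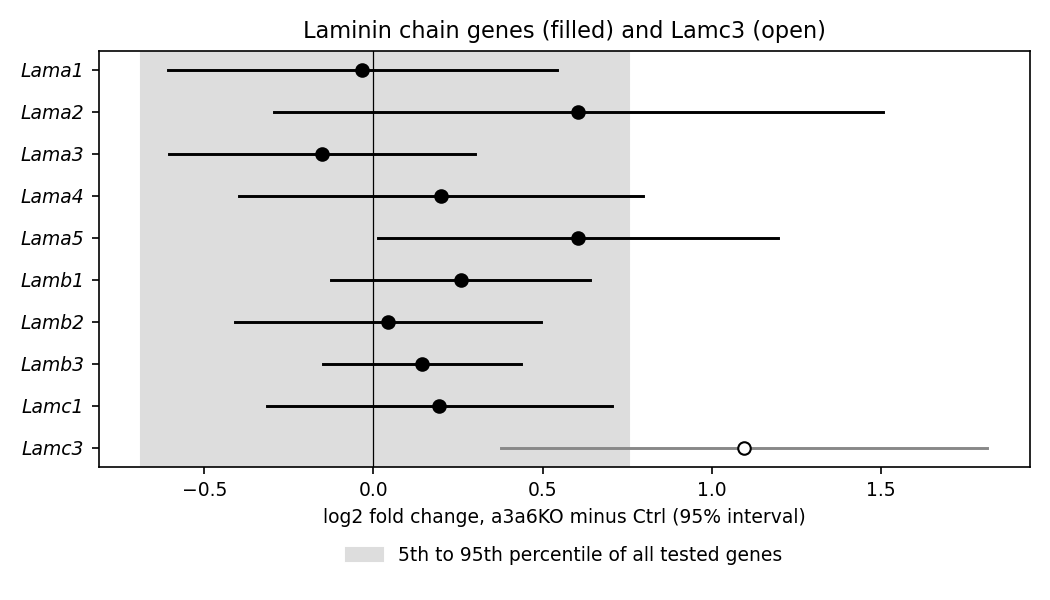
log2 fold change, a3a6KO minus Ctrl, with its 95% interval from limma for the 9 laminin chain genes (filled) and for Lamc3 (open). The intervals of 8 of the 9 genes include 0, and that of Lama5 runs from 0.01 to 1.197.

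Levels of different genes were compared per kilobase (kb) of coding length, since longer transcripts give more reads. Over the 7 libraries the order was Lamb3 with a mean of 2775 normalised counts per kb, Lamb2 with 1667, Lama3 with 1313, Lamb1 with 966, Lama1 with 318, Lamc1 with 251, Lama4 with 104, Lama5 with 45.2 and Lama2 with 4.09. The gene of each rank was above the next in all 7 libraries, with the exception of Lama1 over Lamc1 (6 of 7). The ranges of neighbours overlapped for Lamb2 and Lama3, for Lama3 and Lamb1, for Lama1 and Lamc1 and for Lama4 and Lama5. With the length of all exons in place of coding length, Lamb2 (1479 per kb) and Lamb3 (1470.5 per kb) did not separate. Lama4 was then above Lama5 in 5 of 7 libraries. In a3a6KO cells Lama5 (54.8 per kb) averaged above Lama4 (50.2 per kb) with that length. The level of Lama3 depends on its isoform, since the shorter coding form is 5.17 kb and the longer 9.99 kb. With the shorter form Lama3 averaged 2536 per kb, just below the lowest Lamb3 library (2598 per kb), and the ranges of the 2 genes overlapped.

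Within the α class, Lama3 held 71.7% ± 4.39 of the summed level per kb in a3a6KO cells (SD, n = 3) and 75.1% ± 2.35 in Ctrl cells (SD, n = 4). Lama1 held 18.3% ± 4.07 in a3a6KO cells and 17.4% ± 1.53 in Ctrl cells. Lama3 thus led the α class in both groups, at between 66.8% and 78.2% in every library, and Lama1 came after it. Lama4 held 6.32%, 6.66% and 6.41% in a3a6KO libraries, against 4.65%, 6.13%, 4.38% and 6.296% in Ctrl libraries. Lama2 held 0.294% ± 0.1005 in a3a6KO cells and 0.194% ± 0.110 in Ctrl cells. Lama5 held 2.87%, 3.59% and 3.24% in a3a6KO libraries, against 1.94%, 1.66%, 1.89% and 2.59% in Ctrl libraries. The shares of Lama4 and Lama5 were apart between the groups, by a narrow margin for Lama4, while their counts overlapped. For Lama4 this does not hold with the shorter coding form of Lama3, where its shares overlapped. The ratio of Lama4 to Lama3, which no choice of length can separate, also overlapped between the groups. These shares were not tested, and no background share over all genes applies to them.

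Within the β class, Lamb3 held 51.8% ± 0.769 in a3a6KO cells (SD, n = 3) and 51.2% ± 3.43 in Ctrl cells (SD, n = 4). Lamb2 held 29.6% ± 1.06 in a3a6KO cells and 31.5% ± 4.67 in Ctrl cells. Lamb1 held 18.7% ± 0.344 in a3a6KO cells and 17.3% ± 3.21 in Ctrl cells. The 3 β chains kept the same order in every library, and the a3a6KO libraries lay inside the Ctrl range for each. With the length of all exons the share of Lamb2 was 41.0% in a3a6KO cells and 43.2% in Ctrl cells, and that of Lamb3 42.9% in a3a6KO cells and 42.0% in Ctrl cells.

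**Figure D3:**
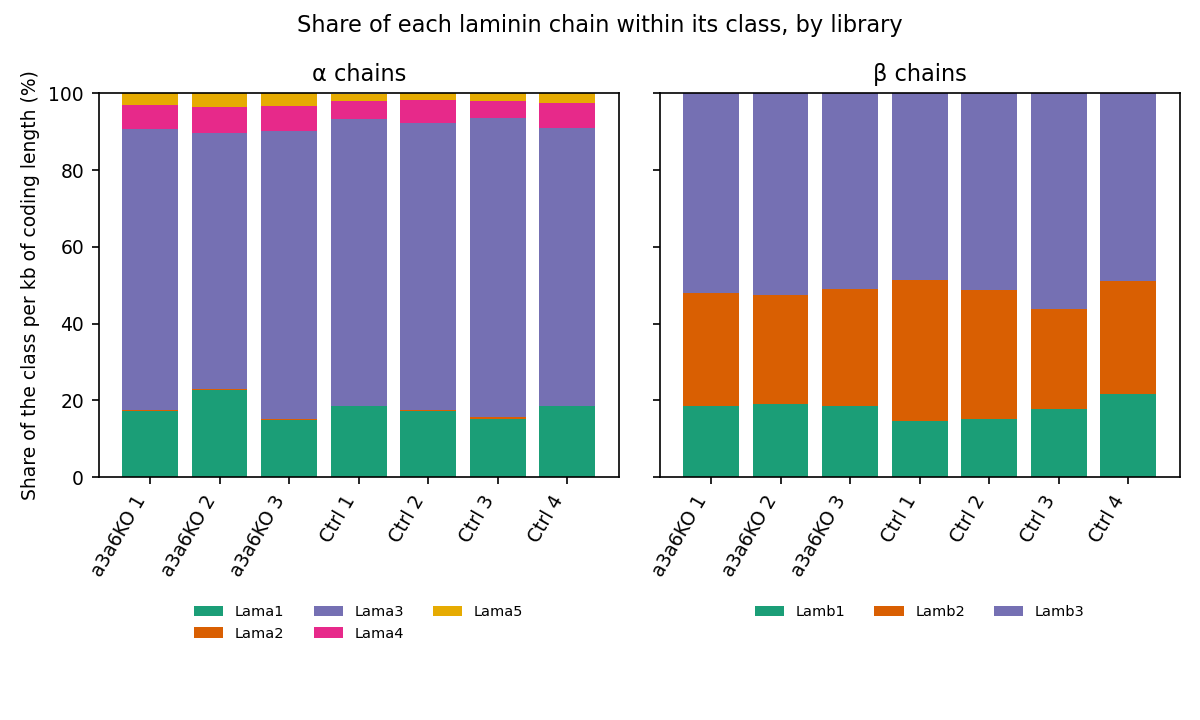
Share of each laminin chain within its class (α and β chains), as percent of the summed normalised count per kb of coding length, for the 3 a3a6KO and 4 Ctrl libraries. Lama3 takes the largest part of its class in every library, between 66.8% and 78.2%, and Lamb3 does so in its own, between 48.6% and 56.1%.

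The libraries moved many of the members together, whichever their group. Ctrl replicate 3 was the lowest library for 6 of the 9 genes and below the gene's own mean for 8, and a3a6KO replicate 3 was the highest for 6. All 9 genes were below their own mean in a3a6KO replicate 1. The mean deviation of the 9 genes from their own mean on the log2 scale was −0.16, 0.13 and 0.39 in a3a6KO libraries, against 0.07, −0.11, −0.40 and 0.08 in Ctrl libraries. The ranges of the groups overlapped, and each group held libraries on both sides of the mean.

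Long genes of the whole table were lowest in the same libraries as the laminin genes but highest in another. Of the 9 laminin chain genes, 7 have a coding length of 5 kb or more. Over the 567 tested genes of that length the median deviation was −0.16, 0.04 and 0.11 in a3a6KO libraries, against 0.12, 0.14, −0.25 and 0.08 in Ctrl libraries. The lowest libraries were a3a6KO replicate 1 and Ctrl replicate 3, both low for the laminin genes. The highest was Ctrl replicate 2, where the mean deviation of the laminin genes was −0.11, while that mean was highest in a3a6KO replicate 3 (0.39). The median fold change of these long genes was −0.04. With genes centred within classes of coding length in each library, a fit chosen after the data were seen, the median fold change of the 9 genes was 0.21 and that of Lama5 0.63 (limma adjusted p = 0.638). The part of coding length in the library pattern was not tested further.

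**Figure D4:**
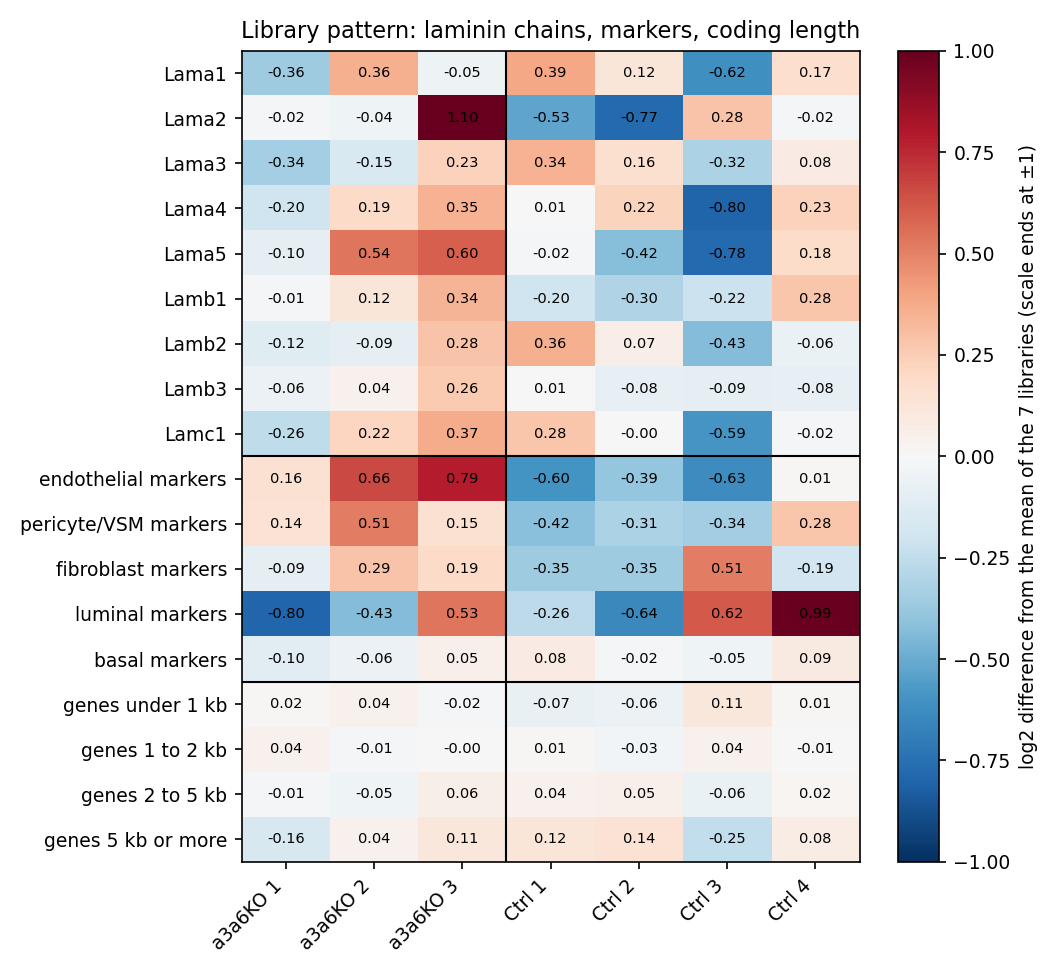
log2 difference of each library from the mean of the 7 libraries, for the 9 laminin chain genes, for marker lists and for classes of coding length, with a3a6KO libraries left of the line and Ctrl libraries right of it. The colour scale ends at ±1. Ctrl replicate 3 is low (blue) for 8 of the 9 genes, and the endothelial row is higher in every a3a6KO library than in any Ctrl library.

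Markers of other cell types were measured in the same libraries. The 18 endothelial markers, led by Eng, Pecam1 and Cldn5, summed to between 12849.6 and 18420.1 in a3a6KO libraries and between 7018 and 10684 in Ctrl libraries. Of these, 17 had fold changes above 0 (49.5% of all genes tested) and 11 had a3a6KO wholly above Ctrl (4.0% of all genes), with a median of 1.02. By limma 0 of 18 were called and 15 had an unadjusted p under 0.05 (6.32% of all genes tested). DESeq2 called 9, where it called 0.456% of all genes tested. Lama4 and Lama5, which endothelial cells are known to make, were measured beside this shift, and its part in their values was not tested. Markers of pericytes and vascular smooth muscle summed to between 7327 and 8467 in a3a6KO libraries and between 5902 and 8714 in Ctrl libraries, and those of fibroblasts, a known source of Lama2 and Lama4, to between 31775 and 42286 in a3a6KO libraries and between 26253 and 35883 in Ctrl libraries. Both sums overlapped between the groups. The pericyte and vascular smooth muscle sum is led by Steap4, with 3351 to 4779 in a3a6KO libraries and 3883 to 5921 in Ctrl libraries (fold change −0.29, SE 0.18, limma adjusted p = 0.808). Of its 12 tested markers 11 had fold changes above 0 (49.5% of all genes tested), with a median of 0.52. By limma 0 were called and 3 had an unadjusted p under 0.05 (6.32% of all genes tested). DESeq2 called 1 (0.456% of all genes tested). The part of that shift in the values of Lama4, Lama5 and Lamb2 was not tested. Luminal markers, which include milk protein genes, summed to between 87314 and 299858 in a3a6KO libraries and between 114683 and 668580.4 in Ctrl libraries. Adipocyte markers, led by Lep, summed to between 20571 and 28755 in a3a6KO libraries and between 8988 and 26802 in Ctrl libraries. Of these, 3 had fold changes above 0 and 3 below, and the part of fat cells in the Lama4 values was not tested. Among defining markers Cd8a of T cells and Foxd3 of Schwann cells were at 0 in all 7 libraries, which does not show that such cells were absent. The immune list, led by Cd74, summed to between 1133 and 3140 in a3a6KO libraries and between 822 and 2943 in Ctrl libraries. The Schwann cell list, led by Mbp, summed to between 174 and 252 in a3a6KO libraries and between 125 and 235 in Ctrl libraries. In such sorted bulk samples fewer cells of a type and less RNA per cell cannot be told apart.

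The ratio of members within a library does not depend on its size factor. Of the 8 other members, 3 had a ratio to Lama3 that was apart between the groups, all with a3a6KO above Ctrl, where 4.51% of all genes were apart above and 0.847% below. That background holds genes of every length, whereas 7 of the members, Lama3 among them, have a coding length of 5 kb or more. Genes of that length were lowest in the same libraries as Lama3, so the background is not matched to the members. The ratio was chosen after the values were seen, and it has no test. Lama5 had per kb 0.0392, 0.0537 and 0.0431 times the level of Lama3 in a3a6KO libraries, against 0.0259, 0.0222, 0.0241 and 0.0357 in Ctrl libraries. Lamb2 had 1.47, 1.33 and 1.32 times that level in a3a6KO libraries, against 1.28, 1.19, 1.17 and 1.15 in Ctrl libraries. Lamc1 had 0.201, 0.246 and 0.210 times that level in a3a6KO libraries, against 0.181, 0.170, 0.158 and 0.177 in Ctrl libraries. The lowest a3a6KO library was above the highest Ctrl library in each, by a small margin for Lamb2. Lama3 is the shared denominator, so the 3 ratios are not independent of each other.

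Lama5 was also set against Lama1 and Lama4, the other α chains of higher level per kb of coding length. These ratios reuse the same Lama5 counts, so they are not independent of its fold change, its share or its ratio to Lama3. Per kb, Lama1 was 6.01, 6.34 and 4.57 times the level of Lama5 in a3a6KO libraries, against 9.50, 10.5, 8.07 and 7.14 in Ctrl libraries. The ratio of Lama5 to Lama4 was 0.455, 0.538 and 0.504 in a3a6KO libraries, against 0.418, 0.271, 0.430 and 0.411 in Ctrl libraries. In both the groups did not overlap, with Lama5 relatively higher in a3a6KO cells. Among the β chains the ratio of Lamb1 to Lamb2 was 0.626, 0.669 and 0.603 in a3a6KO libraries, against 0.395, 0.449, 0.675 and 0.734 in Ctrl libraries. There Ctrl replicates 1 and 2 were low and Ctrl replicates 3 and 4 high, and the groups overlapped. In all 12 ratios were formed, of which 5 were apart, those given above. Each of these 5 holds Lama3 or Lama5, so they are not independent of each other. A background over all genes was formed only for ratios to Lama3, so the count of 5 has none.

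**Figure D5:**
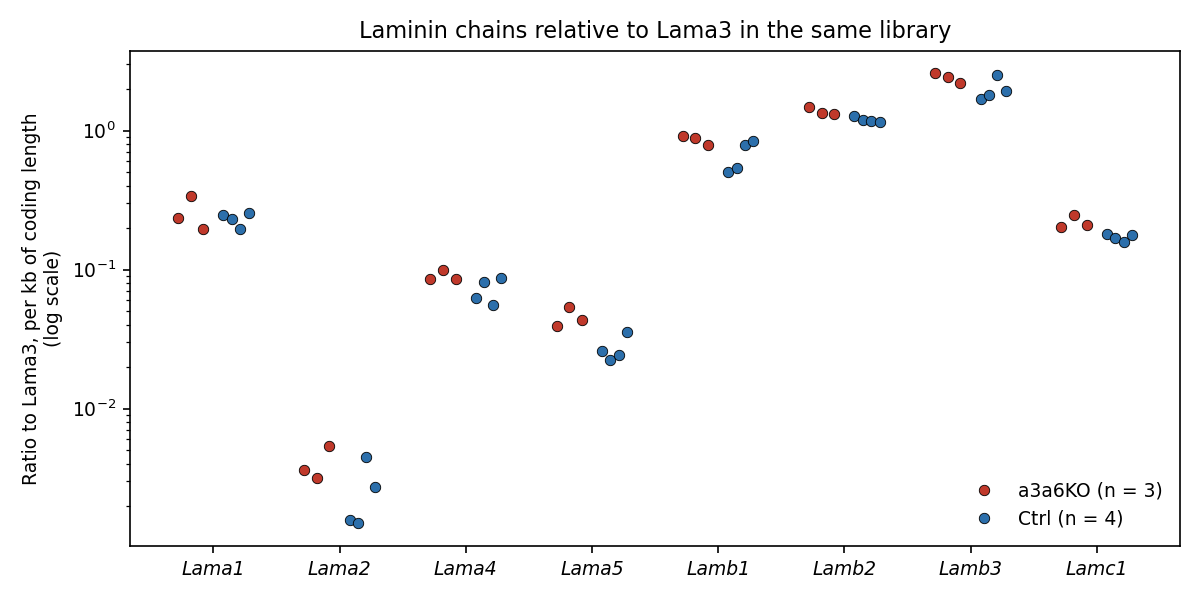
Ratio of the 8 other laminin chain genes to Lama3 in the same library, per kb of coding length (log scale), with 1 point for each of the 3 a3a6KO and 4 Ctrl libraries. The points of Lama5, Lamb2 and Lamc1 do not overlap between the groups, and those of the other 5 do.

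Cells bind laminins through receptors, and 12 of 13 listed receptor and partner genes were tested. By limma 0 were called, with 2 at an unadjusted p under 0.05, where 6.32% of all genes tested were. Fold changes were above 0 for 8, where 49.5% of all genes tested were, with a median of 0.12. In 2 genes a3a6KO lay wholly above Ctrl, where 4.0% of all genes tested did. Bcam, a receptor for the α5 chain, had 6806, 7720.3 and 8910.3 in a3a6KO libraries, against 4268, 3072, 4373 and 4865 in Ctrl libraries. The groups were apart, with a fold change of 0.93 (SE 0.18), a limma adjusted p of 0.515 and a DESeq2 adjusted p of 0.0039. Endothelial markers also stood higher in every a3a6KO library, and the part of that shift in the Bcam values was not tested. Dag1, the gene of dystroglycan, had 21151, 20718 and 20850.5 in a3a6KO libraries, against 17502, 19399, 16201 and 17658 in Ctrl libraries, apart with a fold change of 0.24 (SE 0.13, limma adjusted p = 0.796), or 0.10 under quantile normalisation. Itgb4, which pairs with α6 in hemidesmosomes, had a fold change of −0.45 (SE 0.18, limma adjusted p = 0.741) and overlapping groups.

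Of 20 listed partners in the basement membrane 18 were tested. By limma 0 were called and 7 had an unadjusted p under 0.05, where 6.32% of all genes tested did. Fold changes were above 0 for 16, where 49.5% of all genes tested were, with a median of 0.46. In 3 of the 18 a3a6KO lay wholly above Ctrl, where 4.0% of all genes tested did. The nidogens Nid1 and Nid2, which link laminin to collagen IV, had fold changes of 0.68 (SE 0.18, limma adjusted p = 0.551) and 0.97 (SE 0.29, limma adjusted p = 0.618). The groups were apart for Nid1 and overlapped for Nid2. Sparc, a collagen-binding matrix protein, had 124311, 132992 and 120066 in a3a6KO libraries, against 87296, 85371, 90059 and 91384 in Ctrl libraries. Its groups were apart, with a fold change of 0.51 (SE 0.18), a limma adjusted p of 0.694 and a DESeq2 adjusted p of 0.0023. Bcam and Sparc were the only 2 listed partners that DESeq2 called, where it called 0.456% of all genes tested. Nidogens, collagen IV and Sparc are also made by endothelial cells, whose markers stood higher in every a3a6KO library, and the part of that shift was not tested.

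Of the listed proteases that process laminins 8 were tested, with 0 called by limma, 0 at an unadjusted p under 0.05, 0 called by DESeq2 and a median of 0.18. Over all genes tested these shares were 0.0%, 6.32% and 0.456%, so counts of 0 say little about so few genes. Mmp3, a stromelysin, had a fold change of 0.95 with an SE of 0.79, which was 0.23 without Ctrl replicate 1, 1.43 without Ctrl replicate 3, 0.54 with edgeR and 0.55 with DESeq2. Bmp1, a protease of matrix proteins, had 0.14 (SE 0.14), from 0.07 without a3a6KO replicate 2 to 0.23 without Ctrl replicate 1. The gelatinase Mmp2 had 0.21 (SE 0.24), from −0.01 without a3a6KO replicate 1 to 0.45 without a3a6KO replicate 3. Of the genes that build the laminin-binding sugar of dystroglycan 12 were tested, with 0 called by limma or DESeq2 and a median of 0.06. At an unadjusted p under 0.05 limma gave 1, beside 6.32% of all genes tested. Gyltl1b, a glycosyltransferase also named Large2, had 919.7, 1238 and 1292 in a3a6KO libraries, against 1744, 1634, 1445 and 1299 in Ctrl libraries. Its groups were apart by a narrow margin, with a fold change of −0.42 (SE 0.16, limma adjusted p = 0.738), or −0.27 without a3a6KO replicate 1. Large, which extends the sugar, was at 0.47 (SE 0.24, limma adjusted p = 0.789), and Pomgnt1, which adds a sugar at an earlier step, was at 0.30 (SE 0.18, limma adjusted p = 0.797), both with overlapping groups. Pomgnt1 was at 0.18 without a3a6KO replicate 1 and 0.47 without a3a6KO replicate 3.

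For each member the genes of most similar level pattern over the 7 libraries were taken by the root mean square difference of centred log2 values, among 10413 candidates. Lamb3 was closest to Etv6 (0.02) and Gnai2 (0.04), and Lama3 to Sbf2 (0.03) and Mfhas1 (0.04). Lama1 was closest to Tln1 (0.06), the gene of the integrin activator talin, and Slc16a11 (0.08). Lamb1 was closest to Col18a1 (0.07), a basement membrane collagen, and Fam188a (0.08), and Lamb2 to Inppl1 (0.06) and Fmn1 (0.07). Lama4 was closest to Tsc1 (0.08) and Dock9 (0.10), and Lamc1 to Polg (0.08) and Dnase1l1 (0.09). The distances were larger for Lama5, to Cnksr1 and Ahcy (both 0.13), and for Lama2, to Dusp14 (0.18) and Gsto1 (0.22). The members' own root mean square spread was 0.12 for Lamb3, 0.23 for Lamb1, 0.46 for Lama5 and 0.56 for Lama2. Distances therefore do not rank how well different members were matched. With this many candidates and 7 libraries a close pattern is a description only.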

How the data were processed

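Libraries of sorted cells were made by SMARTer v4, per the labels' protocols. In the deposited table each gene has a signal value for each library, a count that the authors scaled by DESeq2 size factors, per the submitters' processing notes. These notes list build mm10 and, with no role, STAR 2.4.0, Picard, FastQC and SAMtools. Neither the counting program nor whether it used strand is stated in those sources. The values are not corrected for length. Replicate numbers only name libraries, in accession order. Libraries called biological replicates are not stated to come from separate animals, so p-values measure the spread between these libraries.

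Whole reads were recovered as multiples of 1 step per library (100% of values, within 0.01 read), and 61.8% to 63.8% of counts from 1 to 20 were even. A fragment may therefore often have been counted as 2 reads, while the count tests treat each as 1, which bears on the read totals and on the p-values of edgeR and DESeq2. Limma 3.58.1 in R 4.3.3 was fitted on log2(value + 1), with a trend in its empirical Bayes step. This scale understates changes of low genes. The fit took 16889 genes at 10 or more in 3 or more libraries. All tests are two-sided and adjusted by Benjamini-Hochberg over all genes tested with a threshold of 0.05. Alternatives were count tests on recovered reads with DESeq2 1.42.0 and the quasi-likelihood test of edgeR 4.0.16, pseudocounts of 0.5 and 8, no filter, a minimum of 50, quantile and TMM scaling, library weights, no trend, robust variances and leaving out each library. Centring within length classes and the shorter Lama3 isoform were added after the data were seen. The fits were tested on simulated counts.

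Coding and exon lengths came from GENCODE M21, since RefSeq protein lengths were not used here. A coding length was found for all 9 members and for 73.2% of tested genes. The members and gene lists were chosen with earlier results of these data known. All 9 members are named, with the other laminin genes analysed, up to 3 of each partner list by smallest p, up to 3 markers by level, and 2 genes of closest pattern (mean of at least 50, no predicted genes). Ratios were formed after the values were seen. Some other listed genes are not reported here.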

Additional observations from a re-analysis of the deposited data

Results flagged for a closer look

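In groups of 4 Ctrl libraries the library farthest from the rest was compared with Dixon's critical value, in 88 groups, of which 6 were past it. Chance gives about 1 in 20. Lamb1 had 6351 in Ctrl replicate 4, where the other Ctrl libraries had 4262 to 4566. Lamb3 had 9726 in Ctrl replicate 1, where the others had 9105 to 9164, a small distance on a narrow range. The per kb ratio of Lama5 to Lama4 was 0.271 in Ctrl replicate 2, where the others had 0.411 to 0.430. Nid2 had 679 in Ctrl replicate 4, where the others had 286 to 349.8. The mean log2 level of the receptor list was 11.03 in Ctrl replicate 4 and 10.86 to 10.88 in the others. The mean log2 level of the pericyte and vascular smooth muscle list was 7.48 in Ctrl replicate 4 and 6.78 to 6.89 in the others. Ctrl replicate 4 was thus the library apart in 4 of the 6, and the cause was not tested.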

How the results depend on the processing

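No laminin chain gene was called under any of the 19 alternatives. Fold changes were above 0 for 5 to 8 of the 9 genes, or for 6 of the 8 that passed a minimum of 50 (without Lama2), with a median between 0.03 and 0.34. DESeq2 called 77 genes in all and 2 listed partners, where limma called 0 of each; the cause was not tested. Signs turned for Lama4 with library weights (−0.0011) and Lamb2 with quantile normalisation (−0.030) and library weights (−0.054). When each library was left out, the fold change ranged from −0.24 to 0.14 for Lama1, −0.038 to 0.36 for Lama4, −0.096 to 0.17 for Lamb2, −0.25 to 0.051 for Ntn4 and −0.013 to 0.45 for Mmp2. With exon length, shares in a3a6KO cells were 16.2% for Lamb1, 41.0% for Lamb2 (Ctrl 43.2%) and 42.9% for Lamb3 (Ctrl 42.0%). With the shorter Lama3 isoform, the share of Lama3 was 83.0% in a3a6KO cells and 85.3% in Ctrl cells, and that of Lama1 was 11.0% in a3a6KO cells and 10.2% in Ctrl cells. The unadjusted 95% intervals of the members reached down to −0.61 (Lama1 and Lama3) and up to 1.51 (Lama2), and with 3 and 4 libraries every change within a gene's interval remains possible. No paired analysis was possible because replicate numbers follow accession order and pair nothing.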
